A study of Mus musculus with 10 samples.

Results

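Early neuron and motor neuron genes were examined in microdissected hindbrain and pharyngeal arches 1 to 4 of mouse embryos at E10.5, as a list of 36 genes that mark newly born neurons, their axons and their first subtypes. The list was matched by the gene symbol of the platform annotation, and each gene was read on its brightest probe set by the mean over all 10 arrays. Of the 36 genes, 33 had a probe set, against 12393 genes with a single symbol on the whole array. The study set 5 embryos homozygous for a Fbln1 gene trap (Fbln1-null) against 5 wildtype embryos, all from matings of heterozygous carriers, and hybridised RNA of each to an Affymetrix array. Fbln1 encodes the matrix glycoprotein fibulin-1, and the series title places the comparison in the question of how fibulin-1 affects FGF8 signalling. The gene trap is inherited rather than driven in 1 cell type, tissue pieces hold neural, mesenchymal and other cells together, and littermates are not identified in the labels. The p-values therefore measure only the spread between these 10 samples.

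As background, neurons of the embryonic hindbrain arise when progenitors beside the ventricle stop dividing under the action of proneural basic helix-loop-helix factors. They then switch on a wave of differentiation factors such as Neurod4 and Nhlh1, RNA-binding proteins of the Hu family and cytoskeletal proteins of the growing axon. LIM-homeodomain and paired-like homeodomain factors such as Isl1, Lhx1 and Phox2a set the subtype, among them the cranial motor neurons whose axons enter the pharyngeal arches. Cranial sensory ganglia next to the hindbrain express many of the same genes. In bulk tissue, fewer neurons and less RNA per neuron cannot be told apart.

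Fbln1 signal, a check of the labels, read 3.83 to 5.11 on the log2 scale in wildtype arrays and 2.52 to 2.85 in null arrays. The difference was -1.88 (SE 0.22), with a p of 0.00794 in a two-sided exact permutation test, the lowest possible with 5 arrays a group. The null arrays lie near the bottom of the scale, so this difference is not a measured fold, and with all values under 4 raised to 4 it was -0.58. Its limma adjusted p over 22626 probe sets was 0.0715. No 2 arrays were identical, and array medians lay between 3.20 and 3.29. Of the hindbrain markers listed, Meis2, Hoxa3, Hoxb4, Hoxa2 and Hoxb3 were over the expression filter, while Egr2, Hoxb1, Hoxb2 and Gbx2 read at most 4.07. Of those over it 4 had a lower and 1 a higher null mean, against 56.9% of all probe sets lower. Meis2 alone did not overlap, at 9.22 to 9.53 in wildtype and 8.87 to 9.18 in null arrays (limma adjusted p = 0.343), against 2.77% of all probe sets. Of 15 arch mesenchyme markers 6 were over the filter, among them Prrx1, Twist1 and Dlx2, and of 7 forebrain, midbrain and eye markers only Otx2 was. None of 9 spinal cord Hox genes was over it, but Hoxd9 read 7.86 in wildtype replicate 2 and 8.27 in Fbln1-null replicate 4 and at most 2.28 elsewhere, and Hoxd10 read 5.48 and 7.76 there and at most 2.32 elsewhere. Hoxb9 ran from 2.77 to 5.65 over the arrays. The signal summed over these 9 genes was 5.63 to 8.56 in wildtype and 5.62 to 9.19 in null arrays (log2 of the sum), so the pieces differed in posterior Hox signal within each genotype, and its part in the neuron gene values was tested only by leaving out these 2 arrays. A probe set counted as over the filter when its log2 value was above 4 on 5 or more of the 10 arrays regardless of genotype, and 9801 probe sets met this and were tested.

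The early neuron genes were measured unevenly. The filter was met by 21 of the 33 genes with a probe set and missed by 12. General neuronal genes made up most of those measured. They held 9 of 12 genes of the cytoskeleton and axon, all 3 Hu genes and all 6 early differentiation factors on the array. Of the subtype genes, 1 of 6 motor neuron genes (Isl1) and 1 of 3 interneuron and sensory genes (Lhx1) were over it. Chat, Pou4f1 and Nhlh2 had no probe set named for them in the annotation used here.

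Promoter sequence is shown for 4 measured genes that share an E-box, the motif of the basic helix-loop-helix class to which Neurod1, Neurod4 and Nhlh1 of this list belong. Promoter sequences from RefSeq on build GRCm38.p6 were found for 28 of the 36 genes, 16 of them over the filter. In the 250 bases before the start, the palindromic E-box CAGCTG was found in 6 of these 16 genes: Ina, Elavl3, Elavl4, Isl1, Sox4 and Sox11. Of all 32851 such windows 13.0% held it, and of all 27025 genes 14.7% held it in at least 1 window. The E-box CAGATG, searched on both strands, was found in 3 of the 16 (Stmn3, Elavl4 and Nhlh1), against 14.4% of all windows and 16.3% of all genes. Elavl4 holds both, and no test was made of these counts. The sequences run 5′ to 3′ on the gene's strand and end at the base before the start, with CAGCTG in capitals. It begins 43 bases before the start in Elavl3, 46 in Elavl4, 103 in Isl1 and 210 in Sox11.
Elavl3, chr9:22052024-22052273, minus strand: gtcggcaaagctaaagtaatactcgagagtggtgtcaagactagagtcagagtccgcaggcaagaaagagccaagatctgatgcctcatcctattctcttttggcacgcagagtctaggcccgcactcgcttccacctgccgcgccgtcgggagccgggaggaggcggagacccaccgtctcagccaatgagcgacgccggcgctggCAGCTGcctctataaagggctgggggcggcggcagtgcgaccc
Elavl4, chr4:110287528-110287777, minus strand: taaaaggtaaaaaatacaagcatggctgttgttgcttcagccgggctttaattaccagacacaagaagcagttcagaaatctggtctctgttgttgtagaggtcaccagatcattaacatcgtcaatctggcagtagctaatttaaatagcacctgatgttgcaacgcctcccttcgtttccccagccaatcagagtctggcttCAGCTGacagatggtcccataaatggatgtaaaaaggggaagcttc
Isl1, chr13:116309689-116309938, minus strand: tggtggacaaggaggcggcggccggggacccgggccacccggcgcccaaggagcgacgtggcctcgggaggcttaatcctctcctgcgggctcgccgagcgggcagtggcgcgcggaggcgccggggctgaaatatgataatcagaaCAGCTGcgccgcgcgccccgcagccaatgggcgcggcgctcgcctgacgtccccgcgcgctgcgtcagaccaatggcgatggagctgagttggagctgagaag
Sox11, chr12:27342719-27342968, minus strand: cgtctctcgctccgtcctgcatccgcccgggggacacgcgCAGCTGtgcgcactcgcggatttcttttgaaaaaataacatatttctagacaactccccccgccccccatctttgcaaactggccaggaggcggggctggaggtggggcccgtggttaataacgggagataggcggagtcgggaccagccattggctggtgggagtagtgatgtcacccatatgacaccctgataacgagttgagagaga

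Between the genotypes, none of the 21 measured neuron genes passed an adjusted p of 0.05 (limma, 0 of 21; the smallest adjusted p was 0.302). Over all probe sets tested the share called was 0.0204%. At an unadjusted p of 0.05 stood 2 of the 21, Snap25 and Neurod4, both higher in null tissue, against 12.4% of all probe sets in either direction and 3.84% in that direction. The mean was higher in null tissue for 17 genes and lower for 4 (Nefm, Ina, Crmp1 and Tubb3), while 43.1% of all probe sets had a higher and 56.9% a lower mean. With quantile normalization the neuron genes again counted 17 and the share of all probe sets was 51.0%. The median log2 fold change of the 21 genes was 0.12, with a range of -0.38 to 0.66, against -0.04 over all probe sets. In 0 of the 21 genes did the 2 genotypes separate without overlap, against 2.77% of all probe sets. For 16 of the 21 the difference was smaller than the SD between embryos of the same genotype. That share over all probe sets was not counted, so the count does not set the neuron genes apart.

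The count of genes with a higher mean depended on wildtype replicate 4. Without that array it was 11 of 21 and the median was 0.01, and without Fbln1-null replicate 8 it was 19 of 21 and the median was 0.24. Leaving out any other single array gave 13 to 18 genes, and with wildtype replicate 3 left out the median was 0.20. Without wildtype replicate 4 and Fbln1-null replicate 8 together the count was 14 of 21 and the median was 0.09. Without wildtype replicate 2 and Fbln1-null replicate 4, the arrays with Hoxd9 signal, it was 14 of 21 and the median was 0.04. On the 6 arrays whose replicate numbers occur in both genotypes it was 20 of 21 and the median was 0.27. Embryo sex as a covariate gave the same values as leaving out wildtype replicate 4, the only array with female signal. With the ratio of 3′ to 5′ actin control probes in the fit, which compares signal at both ends of 1 transcript, the count was 9 of 21 and the median was -0.05. The log2 ratio ran from 2.0 to 2.38 in wildtype and from 2.19 to 2.85 in null arrays. It thus went partly with genotype, and the fit cannot fully separate the 2.

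**Figure D1:**
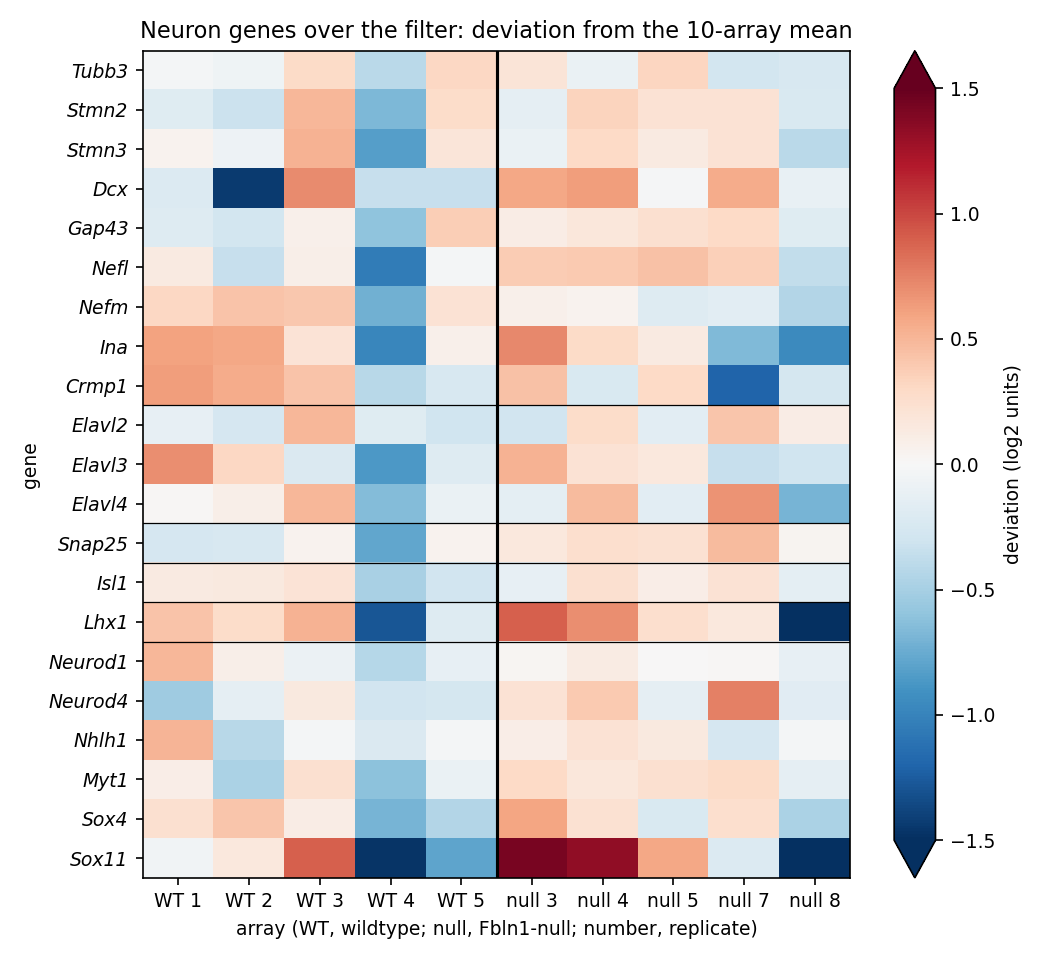
Deviation of each of the 21 measured neuron genes (rows, grouped by role and separated by thin lines) from its mean over the 10 arrays (columns, wildtype left and Fbln1-null right of the thick line), in log2 units, with colours limited at 1.5 on either side. Wildtype replicate 4 was below the median in all 21 genes and Fbln1-null replicate 8 in 19. Of all probe sets 50.2% and 46.3% were above it on these arrays.

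The neuron genes differed more between single embryos than between genotypes, as did the probe sets at large. The median absolute log2 fold change was 0.16 for the neuron genes and 0.15 over all probe sets. Wildtype replicate 4 read the lowest of all 10 arrays in 13 of the 21 genes, whereas 12.4% of all probe sets had their lowest value on that array. It was the lowest wildtype array in 17 genes, against 24.2% of all probe sets. Fbln1-null replicate 8 was the lowest null array in 16 genes, against 20.5% of all probe sets. In 9 of the 21 genes these 2 arrays were the lowest pair, against 5.46% of all probe sets. At the other end, Fbln1-null replicate 4 was above the 10-array median in 18 genes and Fbln1-null replicate 3 in 16. Of all probe sets 53% and 46.9% were above it on these arrays. The median SD between embryos of a genotype was 0.38 for the neuron genes and 0.27 over all probe sets, and 18 of the 21 genes were above the latter.

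Proteins of synapse and adhesion were represented by 1 gene. Snap25, a subunit of the complex that fuses synaptic vesicles with the membrane, had the smallest p of the list. Its log2 signal was 8.43, 8.44, 8.73, 7.90 and 8.73 in wildtype replicates 1 to 5, and 8.83, 8.93, 8.91, 9.15 and 8.72 in null replicates 3, 4, 5, 7 and 8. Of the null arrays 4 were above every wildtype array, and null replicate 8 lay just below the highest wildtype values, so the groups overlapped. The log2 fold change was 0.46 (SE 0.16, 1.37-fold, limma adjusted p = 0.302) and 0.32 without wildtype replicate 4. With quantile normalization or median centring the groups did not overlap for Snap25, as for 2.98% and 2.86% of all probe sets. Syt1, a calcium sensor of synaptic vesicles, read 2.27 to 2.29 in wildtype and 2.28 to 3.0 in null arrays, and Cntn2, an axonal adhesion protein, read 2.36 to 2.80 over all arrays. Both lie near the bottom of the scale, where no fold is given.

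Early differentiation factors on their brightest probe sets all had higher means in null tissue (6 of 6 measured, median log2 fold change 0.24), and 0 passed the test (limma; 1, Neurod4, at an unadjusted p of 0.05). Without wildtype replicate 4 the count was 4 of 6, and with the actin ratio in the fit it was 2 of 6. Neurod4, a basic helix-loop-helix factor of neuronal commitment, read 7.48, 7.88, 8.16, 7.72 and 7.75 in wildtype and 8.22, 8.40, 7.88, 8.76 and 7.84 in null arrays. Null replicates 3, 4 and 7 were above every wildtype array, while null replicates 5 and 8 lay among the upper wildtype values (log2 fold change 0.42, SE 0.19, limma adjusted p = 0.389). Myt1, a zinc-finger factor that represses progenitor genes, read 10.23, 9.65, 10.37, 9.51 and 10.03 in wildtype and 10.43, 10.30, 10.37, 10.42 and 9.99 in null arrays. The null arrays lay close together except for replicate 8, and wildtype replicates 2 and 4 were below all of them (log2 fold change 0.34, SE 0.18, limma adjusted p = 0.460).

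Sox11, an SRY-box factor that activates neuronal genes in postmitotic cells, had the widest range of the 21 genes over the arrays, 3.29. It read 7.06, 7.27, 8.01, 5.65 and 6.32 in wildtype and 8.54, 8.45, 7.69, 6.91 and 5.25 in null arrays. Both the highest and the lowest value came from null embryos (log2 fold change 0.51, SE 0.59, limma adjusted p = 0.784). With 1 array left out the difference ran from 0.20 (without wildtype replicate 4) to 1.04 (without Fbln1-null replicate 8). Nhlh1 and Neurod1, further basic helix-loop-helix factors of young neurons, had differences of 0.07 (SE 0.17) and 0.02 (SE 0.16).

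Sox4, the close relative of Sox11, gave differences of opposite sign on its probe sets. On the brightest one the log2 fold change was 0.14 (SE 0.25, adjusted p = 0.867 by limma), while its 3 further probe sets over the filter had -0.25 (SE 0.18), -0.28 (SE 0.17) and -0.68 (SE 0.18). The last read 7.58, 7.98, 7.58, 7.92 and 7.31 in wildtype and 7.51, 6.95, 7.03, 6.65 and 6.81 in null arrays. All null arrays but replicate 3 were below every wildtype array on it, and it did not pass over all probe sets (unadjusted p = 0.00235, limma adjusted p = 0.168). The mean of all Sox4 probe sets over the filter gave -0.27.

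**Figure D2:**
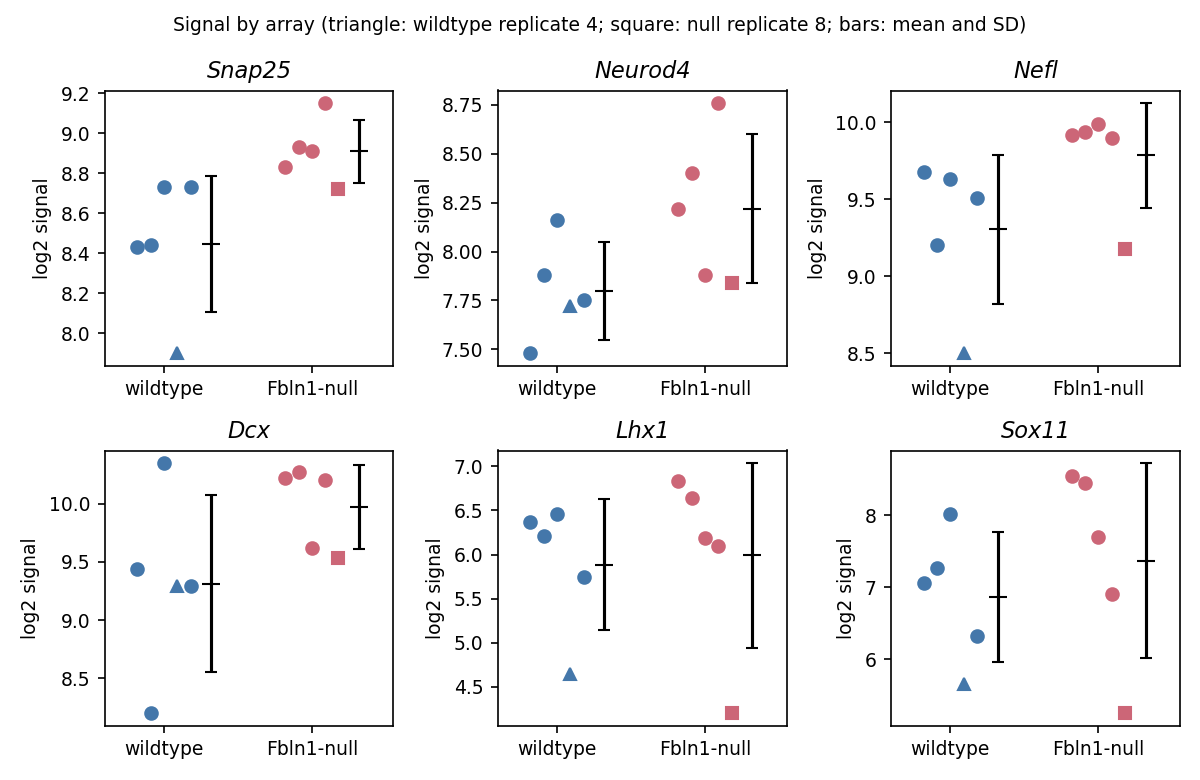
Log2 signal of Snap25, Neurod4, Nefl, Dcx, Lhx1 and Sox11 by array (points; triangle, wildtype replicate 4; square, Fbln1-null replicate 8), with the mean and SD of each genotype (bars, n = 5). The axes differ between genes and do not start at 0. Wildtype replicate 4 and null replicate 8 were the lowest of their genotype for Snap25, Nefl, Lhx1 and Sox11.

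Genes of the neuronal cytoskeleton and axon split in direction, with 5 higher and 4 lower of 9 measured (median log2 fold change 0.06) and 0 past the threshold (limma; 0 also at an unadjusted p of 0.05). Without wildtype replicate 4 the split was 4 to 5 and the median was -0.14. Nefl, the light neurofilament subunit, read 9.68, 9.20, 9.63, 8.50 and 9.51 in wildtype and 9.92, 9.94, 9.99, 9.90 and 9.18 in null arrays. Null replicates 3, 4, 5 and 7 were all above the wildtype range and lay close together, whereas null replicate 8 was below all but 1 wildtype array. The log2 fold change was 0.48 (SE 0.23, 1.40-fold, limma adjusted p = 0.425), and 0.28 without wildtype replicate 4. The other subunits of the same filaments had lower means in null tissue. Nefm, the medium neurofilament subunit, had -0.26 (SE 0.21, limma adjusted p = 0.672), and Ina, alpha-internexin, had -0.19 (SE 0.35, limma adjusted p = 0.874). Nefm read 6.80, 6.92, 6.89, 5.77 and 6.71 in wildtype and 6.57, 6.54, 6.30, 6.33 and 6.05 in null arrays. Wildtype replicate 4 alone lay below the null arrays. Without it the groups did not overlap, as for 3.91% of all probe sets, and the limma adjusted p of Nefm was 0.277.

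Dcx, a microtubule-binding protein of migrating young neurons, had the largest difference of the list over all arrays, 0.66 (SE 0.32, limma adjusted p = 0.426), and 0.38 without wildtype replicate 2. It read 9.44, 8.20, 10.35, 9.29 and 9.29 in wildtype and 10.22, 10.27, 9.62, 10.20 and 9.53 in null arrays. The wildtype arrays held both the highest and the lowest value. The other Dcx probe set over the filter had 0.05 (SE 0.29). Gap43, a membrane protein of growth cones, read 7.94, 7.86, 8.21, 7.53 and 8.50 in wildtype and 8.25, 8.30, 8.38, 8.43 and 7.95 in null arrays. The null arrays fell inside the wildtype range (log2 fold change 0.25, SE 0.18, limma adjusted p = 0.605).

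The remaining cytoskeletal genes differed by less than the spread between embryos. Stmn2 and Stmn3, tubulin-binding stathmins of growth cones, had differences of 0.16 (SE 0.21) and 0.06 (SE 0.23), and Tubb3, the neuronal beta-tubulin, had -0.04 (SE 0.17), with a 95% interval of -0.41 to 0.33. Crmp1, a collapsin response mediator of axon guidance, had -0.38 (SE 0.30) and was lowest in null replicate 7, at 4.10 against 5.03 to 5.73 in the other null arrays. The Stmn3 probe set is of a type that can match transcripts of several genes. Map2, Mapt and Prph, which encode dendritic and axonal microtubule proteins and the intermediate filament peripherin, read at most 2.98 and gave no fold.

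The 3 Hu genes, RNA-binding proteins that stabilise neuronal transcripts, had mean differences smaller than the spread between embryos, and 2 of the 3 had a lower null mean without wildtype replicate 4. Elavl2 read 9.19, 9.06, 9.81, 9.13 and 9.01 in wildtype and 9.02, 9.58, 9.15, 9.73 and 9.42 in null arrays, a difference of 0.14 (SE 0.18). Elavl3 read 8.30, 7.91, 7.38, 6.74 and 7.41 in wildtype and 8.12, 7.81, 7.76, 7.25 and 7.30 in null arrays, a difference of 0.10 (SE 0.27). Elavl4 read 8.51, 8.58, 8.99, 7.84 and 8.39 in wildtype and 8.35, 8.97, 8.34, 9.17 and 7.79 in null arrays, a difference of 0.06 (SE 0.26). The groups overlapped for each, and the arrays did not take the same order in the 3 genes: wildtype replicate 3 was the highest wildtype array for Elavl2 and Elavl4, and wildtype replicate 1 for Elavl3. The limma adjusted p was 0.814, 0.915 and 0.958. Their further probe sets over the filter, 3 for Elavl2, 1 for Elavl3 and 2 for Elavl4, had differences of -0.24 to 0.21.

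Motor neuron genes could be compared on Isl1 alone. Isl1, a LIM-homeodomain factor of motor neurons, sensory ganglia and also of arch tissue, read 10.430, 10.446, 10.502, 9.809 and 10.006 in wildtype and 10.179, 10.545, 10.398, 10.520 and 10.150 in null arrays. Wildtype replicates 4 and 5 were below all null arrays, and the others lay among them (log2 fold change 0.12, SE 0.16, 95% interval -0.23 to 0.47, limma adjusted p = 0.822). Without wildtype replicate 4 the difference was 0.01. The other Isl1 probe set had -0.09 (SE 0.13). Isl2, its paralogue in motor neurons, read 3.20 to 3.63. Phox2a, a homeodomain factor of branchiomotor and noradrenergic neurons, read 2.27 to 2.28 on all arrays but null replicate 3, at 3.02. Mnx1 and Ret, a homeodomain factor of somatic motor neurons and the receptor of GDNF-family ligands, did not leave 2.27 to 2.28, and Lhx3 read 2.26 to 2.97. These values give no level and do not show that the genes were silent.

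Lhx1, a LIM-homeodomain factor of interneurons, was the measured gene of that group. It read 6.37, 6.21, 6.46, 4.65 and 5.74 in wildtype and 6.83, 6.64, 6.19, 6.10 and 4.20 in null arrays. A single embryo of each genotype, wildtype replicate 4 and null replicate 8, stood far below the rest, and the genotype difference was 0.11, turning to -0.20 without wildtype replicate 4 (SE 0.47 over all arrays, 95% interval -0.91 to 1.13, limma adjusted p = 0.959). Lhx5 and Tlx3, homeodomain factors of interneurons and sensory neurons, read at most 2.70.

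**Figure D3:**
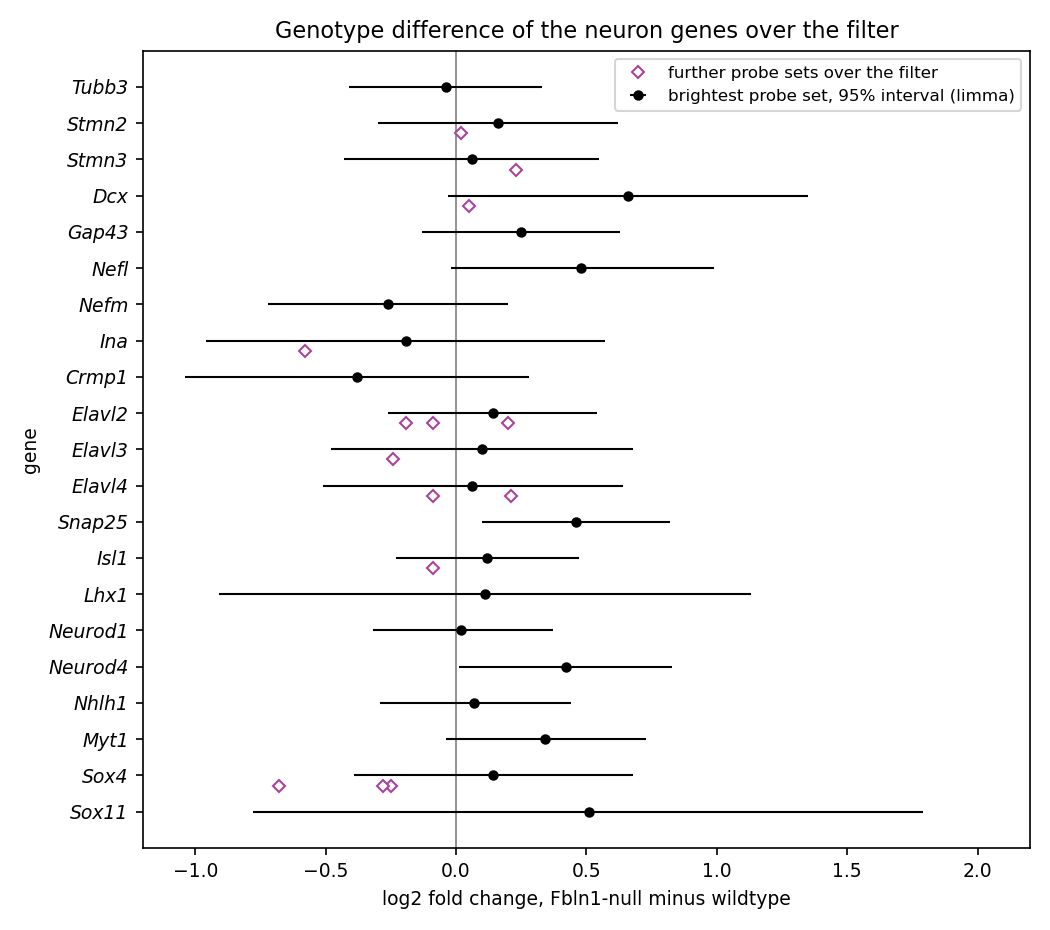
Log2 fold change, Fbln1-null minus wildtype, of the 21 measured neuron genes on the brightest probe set (points, with 95% intervals from limma) and on their 14 further probe sets over the filter (diamonds). The intervals of 19 genes hold 0, and for 8 of the 14 further probe sets the sign is opposite to that of the brightest one.

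Further probe sets gave a check on these differences. Of the 21 genes, 9 had 14 further probe sets over the filter. The direction was that of the brightest probe set in 6 and the opposite in 8, and 9 of the 14 had a lower null mean. Their median log2 fold change was -0.09. Over all 35 probe sets of the 21 genes, 22 had a higher null mean and the median was 0.06. Snap25, Neurod4, Nefl and Myt1 each had a single probe set over the filter, so their differences could not be checked in this way.

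Other neuronal genes were low on the same arrays. Of 53 further neuronal genes with a probe set, 34 met the filter, of which 19 had a higher and 15 a lower mean in null tissue (median log2 fold change 0.07), with 0 past an adjusted p of 0.05 (limma) and 3 at an unadjusted p of 0.05, against 12.4% of all probe sets. Dpysl5, a collapsin response mediator related to Crmp1, had -0.81 (SE 0.26, limma adjusted p = 0.270). Dclk1, a kinase that shares the microtubule-binding domain of Dcx, read 8.10 to 8.27 in wildtype and 8.42 to 8.58 in null arrays, and was the 1 of 34 genes whose genotypes did not overlap, against 2.77% of all probe sets. Its difference was 0.30 (SE 0.10, limma adjusted p = 0.277). Ank3, the ankyrin of the axon initial segment, had 0.32 (SE 0.13, limma adjusted p = 0.342). Without wildtype replicate 4 the split was 14 higher and 20 lower. That array read the lowest of all arrays in 20 of the 34 genes and null replicate 8 in 8, against 12.4% and 10.4% of all probe sets. Of 45 further motor, interneuron and transmitter genes 10 were over the filter, 3 higher and 7 lower, and 0 passed (limma; 0 also at an unadjusted p of 0.05).

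Neural progenitor genes were measured beside the neuron genes, as a list of genes active in the cells from which the neurons arise. The list is not specific to those cells. Ednrb was also listed as a marker of glia and crest, and Neurog1 as a marker of sensory ganglia. In tissue of mixed cells its values cannot be assigned to neural progenitors alone. The filter was met by 24 of 32 such genes, 6 higher and 18 lower in null tissue (median log2 fold change -0.15). Of all probe sets 56.9% had a lower mean. At an adjusted p of 0.05 (limma) 0 passed, and at an unadjusted p of 0.05 stood 4, all lower. At that unadjusted p stood 12.4% of all probe sets in either direction, 3.84% being higher in null tissue and the rest lower. With median centring the split was 10 higher and 14 lower and with quantile normalization 8 to 16, while 48.4% and 49.0% of all probe sets were lower. Without wildtype replicate 4 it was 5 to 19, and without both low arrays 7 to 17. Pax6, a homeodomain factor of progenitors, had -0.52 (SE 0.15, limma adjusted p = 0.222), Hes6, a modulator of Hes factors, had -0.38 (SE 0.13, limma adjusted p = 0.302) and Neurog1, a proneural factor also of cranial sensory neurons, had -0.52 (SE 0.22, limma adjusted p = 0.369). Id3, an inhibitor of basic helix-loop-helix factors, had -0.41 (SE 0.18, limma adjusted p = 0.370).

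Expressed as the mean deviation of a group's measured genes from their 10-array means, the neuron genes stood at 0.13, -0.05, 0.29, -0.67 and -0.09 in wildtype replicates 1 to 5. In null replicates 3, 4, 5, 7 and 8 they stood at 0.28, 0.31, 0.12, 0.09 and -0.41. The progenitor genes stood at 0.27, 0.22, 0.09, -0.11 and -0.02 in the same wildtype and at 0.18, 0.02, -0.19, -0.14 and -0.30 in the same null arrays. Wildtype replicate 4 was thus far lower in neuron genes than in progenitor genes, and null replicate 8 was low in both. The neuron value minus the progenitor value was -0.13, -0.27, 0.20, -0.55 and -0.07 in wildtype and 0.11, 0.29, 0.31, 0.23 and -0.11 in null arrays. It was positive in 1 wildtype and 4 null arrays, and no test was made of it because the genes were chosen with earlier results of these data known.

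**Figure D4:**
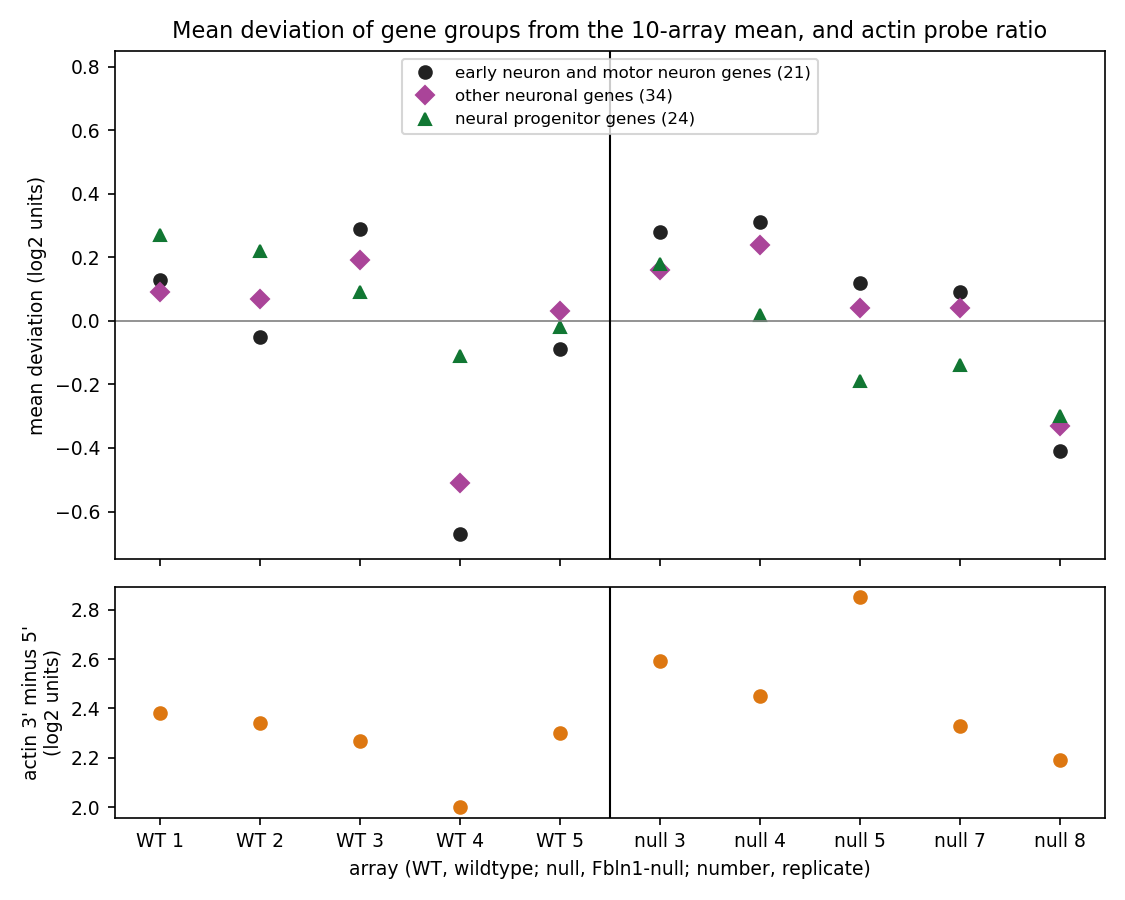
Upper panel, mean deviation from the 10-array mean of the 21 neuron genes, 34 other neuronal genes and 24 progenitor genes on each array, in log2 units; lower panel, log2 signal of the 3′ minus the 5′ actin control probe set on the same arrays. Wildtype replicate 4 had the lowest neuron value, -0.67, and the lowest actin value, 2.0.

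Other measures also set wildtype replicate 4 apart. Null replicate 8 had the lowest actin difference of the null arrays and the highest Otx2 signal. It also had the lowest mean deviation of the 5 hindbrain markers over the filter, -0.42 against -0.23 to 0.41 in the other arrays. Wildtype replicate 4 stood at -0.23 in these markers, as did null replicate 5. The log2 difference between the 3′ and the 5′ actin control probe sets was 2.0 in wildtype replicate 4 and 2.27 to 2.38 in the other wildtype arrays. It was 2.19 in null replicate 8 and 2.33 to 2.85 in the other null arrays. Wildtype replicate 4 was also the only array with Xist signal, 9.68 against at most 3.36, and with a low signal of the Y-linked gene Eif2s3y, 2.70 against 8.96 to 9.85. Erythroid markers, of which 3 of 8 were over the filter (Hbb-y, Hbb-bh1 and Hba-x) and Hba-a1 was at the bottom of the scale, had a mean deviation of -1.13 in wildtype replicate 4 and -0.28 to 0.49 in the others. Their summed signal was 13.02 to 14.19 in wildtype and 13.54 to 14.25 in null arrays (log2 of the sum). Otx2, a marker of midbrain and forebrain and the 1 of 7 such genes over the filter, was highest in null replicate 8, by 0.73 above its mean, while Six3, Six6 and Rax read at most 2.63. The summed signal of these 7 genes was 6.01 to 6.33 in wildtype and 5.84 to 6.55 in null arrays. Their part in the neuron gene values was not tested beyond the fits given above.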

How the data were processed

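RNA of 10 embryo samples was labelled from the 3′ end of transcripts for Affymetrix arrays, per the labels' protocols. The deposited values are on a log2 scale and, per the submitters' processing notes, come from GCRMA, which subtracts background by probe sequence and normalizes between arrays. Dim probe sets therefore collapse onto a floor near the lowest deposited value of 2.22. Precision is limited by how many arrays there are.

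Of 22690 probe sets 64 controls were left out, and genes were named from the platform annotation where a probe set had 1 symbol (20380 probe sets). Genotypes were compared with limma 3.58.1 in R 4.3.3 (lmFit and eBayes) over the 9801 probe sets above log2 4 on at least 5 arrays, with Benjamini-Hochberg adjustment over all of them and a threshold of 0.05. The script was tested on simulated data. No other test was run except an exact permutation test for Fbln1 and Dixon's criterion for outlying arrays. The members and lists were chosen with earlier results of these data known. Named are the listed neuron genes on their brightest probe set, with array values for the 3 smallest p-values in each role. Of the other lists the genes with the smallest p are named, and marker genes where tissue was checked. Nefm array values, the further Sox4 probe set and the E-boxes were chosen after values were seen. Alternatives changed scaling, filter, floor, variance model, covariates, probe set choice and arrays. Promoter sequences are from RefSeq.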

Additional observations from a re-analysis of the deposited data

Results flagged for a closer look

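In 5 of the 48 groups of 5 arrays examined, 1 array stood far from the other 4 by Dixon's criterion, which chance alone meets in about 5% of groups. Groups of the same genotype hold the same 5 embryos, so they are not independent and their number is no test against that share. Fbln1-null replicate 8 was the array in 3 of the 5 groups marked. Nefl read 9.18 there against 9.90 to 9.99 in the other null arrays. Lhx1 read 4.20 there against 6.10 to 6.83. Myt1 read 9.99 there against 10.30 to 10.43. Nefm read 5.77 in wildtype replicate 4 against 6.71 to 6.92 in the other wildtype arrays. Elavl2 read 9.81 in wildtype replicate 3, above the 9.01 to 9.19 of the other wildtype arrays.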

How the results depend on the processing

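No neuron gene passed an adjusted p of 0.05 (limma) at any of 25 alternative settings. The sign of the genotype difference stayed the same at all of them for 8 genes (Stmn2, Dcx, Gap43, Nefl, Snap25, Isl1, Neurod4 and Myt1) and turned at least once for 13. The count with a higher null mean, 17, was 11 with embryo sex and 9 with the actin ratio as covariate, 20 on the 6 arrays whose replicate numbers occur in both genotypes, and 11 to 19 with 1 array left out. Their median, 0.12, was -0.05 with the actin ratio, 0.27 on those 6 arrays and 0.01 to 0.24 with 1 array left out. The count of genes without overlap, 0, was 1 (Snap25) with quantile normalization and with median centring (2.98% and 2.86% of all probe sets). It was 3 without both low arrays (5.83%) and 0 to 2 with 1 array left out (3.46% to 4.88%). The cause was not tested.

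Replicate numbers 3, 4 and 5 occur in both genotypes, and their deviations correlated at -0.191, -0.343 and 0.158. Only number 5 correlated best with its own. The labels do not say what the numbers stand for, and so few correlations cannot settle whether they mark a shared litter or batch. With the replicate block, on those 6 arrays, 5 genes did not overlap, against 19.8% of all probe sets with 3 arrays a group, Sox11 was 1.57, Lhx1 0.94 and Elavl3 0.72, while Tubb3 turned to 0.07, Nefm to 0.01, Ina to 0.61, Crmp1 to 0.25 and Elavl2 to -0.07. The same 6 arrays without the block gave the same values, and 0 probe sets were called in either fit.

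With embryo sex, Stmn3 turned to -0.14, Elavl3 to -0.10, Elavl4 to -0.09, Lhx1 to -0.20, Neurod1 to -0.08 and Sox4 to -0.01. With the actin ratio, Stmn3 turned to -0.16, Elavl3 to -0.27, Elavl4 to -0.06, Lhx1 to -0.58, Neurod1 to -0.11, Nhlh1 to -0.05, Sox4 to -0.05 and Sox11 to -0.31. Averaging probe sets turned Sox4 to -0.27 and Elavl3 to -0.07. Median centring turned Tubb3 to 0.01, and Ina was 0.13 without wildtype replicates 1 and 2. Without both low arrays, chosen after seeing the data, Stmn3 was -0.03, Elavl3 -0.01 and Neurod1 -0.05. Without wildtype replicate 2 and Fbln1-null replicate 4, also chosen after seeing the data, Stmn3 was -0.02, Elavl4 -0.02, Nhlh1 -0.07 and Fbln1 -1.73. With 1 array left out, Tubb3 ran from -0.14 to 0.04, Stmn3 from -0.14 to 0.20, Ina from -0.46 to 0.02, Elavl3 from -0.10 to 0.29, Elavl4 from -0.10 to 0.24, Lhx1 from -0.20 to 0.56, Neurod1 from -0.08 to 0.15, Nhlh1 from -0.02 to 0.21 and Sox4 from -0.01 to 0.28. Fbln1 passed the threshold with median centring (-1.84, limma adjusted p = 0.0473) and without wildtype replicate 3 (-2.06, limma adjusted p = 0.0173). Its difference ran from -2.06 to -1.74 with 1 array left out, and was -0.58 (limma adjusted p = 0.468) with values under 4 raised to 4, -1.5 as the mean of probe sets, -1.57 without wildtype replicates 1 and 2 and -1.65 on the 6 arrays.

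The values of the 12 neuron genes under the filter give no level and do not show that the genes were silent. Their comparison is limited by signal over background.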
